A study of Mus musculus with 27 samples.

Results

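LXR, P300 and ATF3 were mapped by chromatin immunoprecipitation and sequencing (ChIP-seq) in Kupffer cells, macrophages that reside in the mouse liver. The cells came from C57BL/6J mice on the control diet and were sorted, per the labels, as high in F4/80 and positive for Tim4. The labels give no genotype, age or sex, and list 3 antibodies against LXR that were used together. Each factor had 2 libraries, so 6 of the 27 samples of the series were used for binding, and 1 list of reproducible sites was deposited per factor. The lists held 44463 sites of LXR, 25219 of P300 and 16109 of ATF3, together 85791 of the 228956 sites in the 6 lists of the series. Sites that overlapped by at least 1 bp were merged into 49752 regions, and each region was placed in 1 of 7 combinations by the factors it held. A list joins both libraries of a factor, so a site has no value per library and the combinations have no replicate spread; intervals in the text are exact (Clopper-Pearson) 95% binomial intervals and cover counting error only. The labels name inputs shared by LXR and P300, further inputs for LXR and separate inputs for ATF3, and do not say whether the libraries came from separate animals.

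LXRα and LXRβ are nuclear receptors for oxysterols that bind DNA with RXR and switch on genes of cholesterol export and lipid remodelling. In Kupffer cells LXRα also maintains genes that set these cells apart from other macrophages. P300 is a histone acetyltransferase that other factors bring to enhancers and promoters, where it acetylates lysine 27 of histone H3 (H3K27ac), a mark of active regulatory DNA. ATF3 is a stress-induced factor of the ATF and AP-1 family that binds the cyclic AMP response element (CRE), AP-1 sites and composite sites with C/EBP, and is known to restrain inflammatory genes in macrophages. The question here was where these 3 factors met in the healthy liver and how the shared and separate sites differed.

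The regions can be read at 6 promoters, shown because each carries a motif of a family of factors inside a region of a stated combination. The sequences are from RefSeq on GRCm38.p6, run 5′ to 3′ along the gene's strand and lie upstream of the start site, and the capitals mark the motif on either strand. Btg2 (an antiproliferative gene) carries the CRE TGACGTCA in a P300 and ATF3 region, at chr1:134079288-134079347 on the minus strand. Fosb (an AP-1 subunit) carries TGACGCAA, a hybrid of a CRE and a C/EBP site, in a region of ATF3 alone, at chr7:19310072-19310131 on the minus strand. Atf3 itself and Nlrp3 (the inflammasome sensor) carry TGATGCAA, an ATF and C/EBP composite, in regions of all 3 factors, at chr1:191183410-191183469 (minus strand) and chr11:59541465-59541524 (plus strand). C1qc (a chain of complement C1q) and Ptgs1 (cyclooxygenase 1) carry GAGGAAGT, an element of ETS factors such as PU.1, in regions of all 3, at chr4:136893076-136893135 (minus strand) and chr2:36230376-36230425 (plus strand).
Btg2: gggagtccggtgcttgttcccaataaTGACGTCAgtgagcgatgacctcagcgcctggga
Fosb: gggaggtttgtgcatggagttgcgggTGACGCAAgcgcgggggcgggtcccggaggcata
Atf3: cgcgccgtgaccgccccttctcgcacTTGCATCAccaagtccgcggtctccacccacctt
Nlrp3: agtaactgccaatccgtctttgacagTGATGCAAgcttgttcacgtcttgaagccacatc
C1qc: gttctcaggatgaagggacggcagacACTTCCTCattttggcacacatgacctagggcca
Ptgs1: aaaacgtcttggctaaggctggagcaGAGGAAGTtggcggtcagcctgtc

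LXR was the most widespread of the 3 factors, and most ATF3 sites overlapped a site of LXR. LXR alone held 19678 regions, 39.6% of all. All 3 factors met in 10633 regions (21.4%), and LXR with P300 but without ATF3 held 10370 (20.8%). P300 alone held 3639 regions (7.31%), LXR with ATF3 3581 (7.20%) and ATF3 alone 1429 (2.87%). The rarest combination was P300 with ATF3 and no LXR, with 422 regions (0.848%).

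Read from each list, 88.1% of ATF3 sites overlapped an LXR site (interval 87.6 to 88.6%) and 68.5% a P300 site (67.7 to 69.2%). Of P300 sites, 83.6% overlapped LXR and 43.8% ATF3. Of LXR sites, 47.5% overlapped P300 and 32.0% ATF3. Both other factors were present at 65.5% of ATF3 sites, 41.9% of P300 sites and 23.8% of LXR sites. The lists differ in length, and these shares follow it: with each list cut to the 16109 sites of the ATF3 list by score, 54.8% of ATF3 sites overlapped LXR, and 61.1% of P300 sites did. In those cut lists all 3 factors were the largest combination with 6772 regions, ATF3 alone the second with 5402, LXR alone had 4164 and LXR with P300 3066, so the order of the combinations above depends on the lengths of the lists. The 3 lists were deposited separately and no overlap was compared with a chance level.

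Because sites of a region overlap, their centres lie within about the width of a site, and the distances below describe the regions and show nothing beyond that rule. In the 10452 regions of all 3 factors with 1 site of each, the centres of the LXR and ATF3 sites were a median of 30.0 bp apart (quartiles 14.0 and 55.0). LXR and P300 centres were 35.5 bp apart and P300 and ATF3 centres 35 bp. The median for LXR and ATF3 was 29.0 bp where P300 had no site, and that for LXR and P300 was 41.0 bp where ATF3 had none. Sites were a median of 231 bp wide for LXR and ATF3 and 250 bp for P300.

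The combinations sat at different positions. Regions of LXR and P300 without ATF3 were the most often at promoters: 39.4% had their centre within 1000 bp of a start site (interval 38.5 to 40.4%), and their median distance was 4113 bp. P300 alone followed with 32.0% (30.5 to 33.6%) and P300 with ATF3 with 27.5% (23.3 to 32.0%). Regions of all 3 factors lay at promoters in 21.5% (20.7 to 22.3%) and LXR alone in 20.8% (20.3 to 21.4%), with median distances of 13671 and 13346 bp. LXR with ATF3 had 16.1% (14.9 to 17.3%), and ATF3 alone had the lowest share, 11.6% (10.0 to 13.4%), with a median distance of 19689 bp. Among the accessible windows of the control ATAC-seq list, 29.5% lay this close to a start site. The promoter share of LXR with P300 was thus above that of accessible windows, and the shares of LXR with ATF3, with or without P300, were below it.

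**Figure D1:**
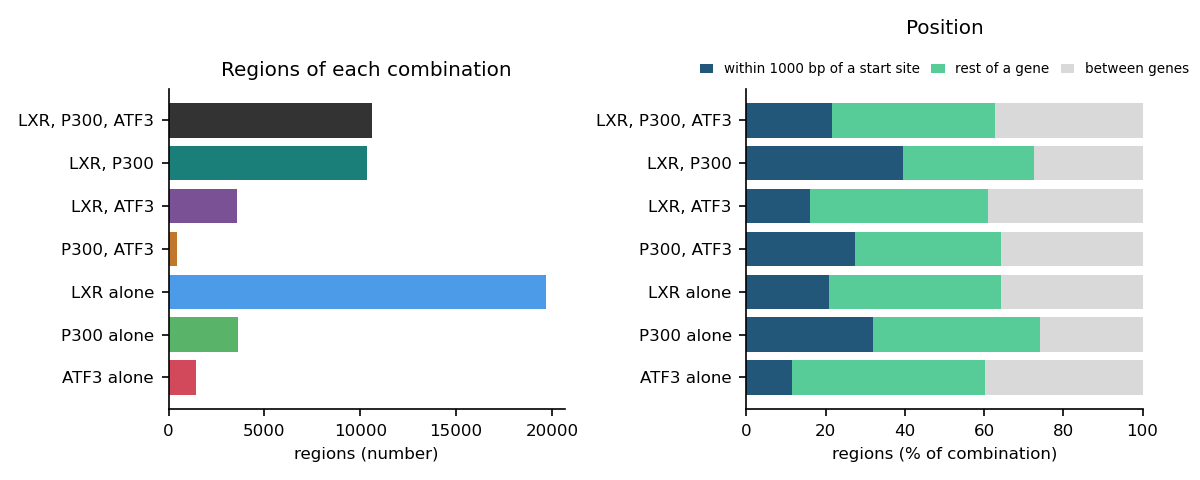
Left, number of regions (x axis) in each combination of factors (y axis). Right, share of each combination's regions (percent) within 1000 bp of a start site, elsewhere in a protein-coding gene, or between genes; LXR and P300 without ATF3 has the largest promoter share (39.4%) and ATF3 alone the smallest (11.6%).

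Away from promoters, regions fell in gene bodies or between genes. ATF3 alone lay in gene bodies in 48.6% and LXR with ATF3 in 45.0%, against 33.2% for LXR with P300. Between genes lay 37.2% of the regions of all 3 factors, 38.9% of LXR with ATF3, 39.7% of ATF3 alone and 25.9% of P300 alone. Regions farther than 50000 bp from any start site made up 27.6% of ATF3 alone and 11.2% of P300 alone.

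Within regions that held both LXR and P300, ATF3 was more frequent away from promoters. An ATF3 site was present in 36.0% of the 6362 such regions within 1000 bp of a start site (34.8 to 37.2%) and in 57.1% of the 14600 farther away (56.3 to 57.9%). With these regions split into 5 groups by LXR score, the gap held in each. In the group of the lowest scores ATF3 was present in 15.0% at promoters and 28.3% elsewhere, and in that of the highest in 61.7% and 78.2%. P300 showed the opposite preference among LXR regions. It was present in 57.7% of the 11033 LXR regions at promoters (56.7 to 58.6%) and 44.0% of the 33171 elsewhere (43.5 to 44.6%).

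Scores rose with the number of factors at a site. The authors' enrichment score, which comes without a stated scale, was compared within each list only. LXR sites in regions of all 3 factors had a median score of 102 (quartiles 71 and 153). The median was 66 with P300 only, 56 with ATF3 only and 43 at LXR alone. An LXR site in a region of all 3 had the higher score in 88.2% of all pairs with an LXR site alone. P300 sites followed the same order, with medians of 36 at all 3, 28 with LXR, 27 with ATF3 and 25 alone, and quartiles that overlapped between combinations.

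The ATF3 list has no enrichment score, and its IDR score, which measures reproducibility between the 2 libraries, reaches its maximum of 1000 at 58.0% of sites. That maximum was reached by 69.9% of ATF3 sites in regions of all 3 factors, 44.8% with P300, 37.9% with LXR and 23.0% alone. The best-scored ATF3 sites were less often at promoters: 14.0% of the sites at the maximum were at promoters, against 27.3% of those below it.

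**Figure D2:**
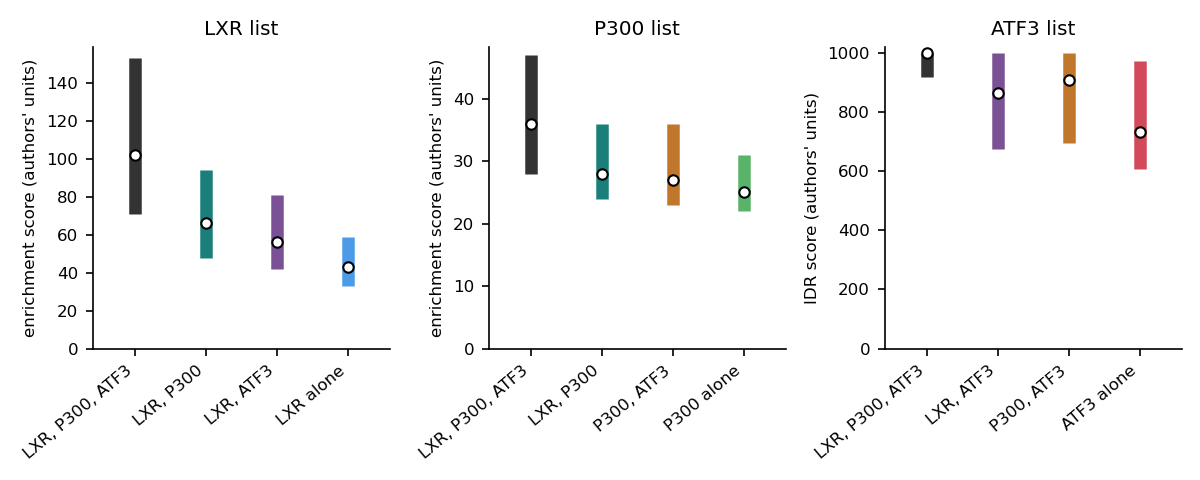
Scores of sites (y axis, the authors' units) by combination (x axis) in the LXR, P300 and ATF3 lists; bars run from the first to the third quartile and points mark the median. Scores are highest in regions of all 3 factors in each list (median 102 for LXR, 36 for P300, 1000 for ATF3); the 3 scales are not comparable.

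Split into 5 groups of equal size by score, LXR sites went from mostly alone to mostly shared. In the lowest group (scores of 24 to 37) 13.7% lay in a region with P300 and 8.49% one with ATF3, and 79.8% had neither. In the highest group (104 to 1040) these shares were 82.3%, 64.2% and 12.0%. For P300, LXR was present at 69.1% of the lowest group and 92.5% of the highest, and ATF3 at 23.6% and 67.9%. LXR was thus present at most P300 sites of every score group, whereas the share with ATF3 rose more steeply. The part that the detection limit of each list has in these trends was not tested.

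**Figure D3:**
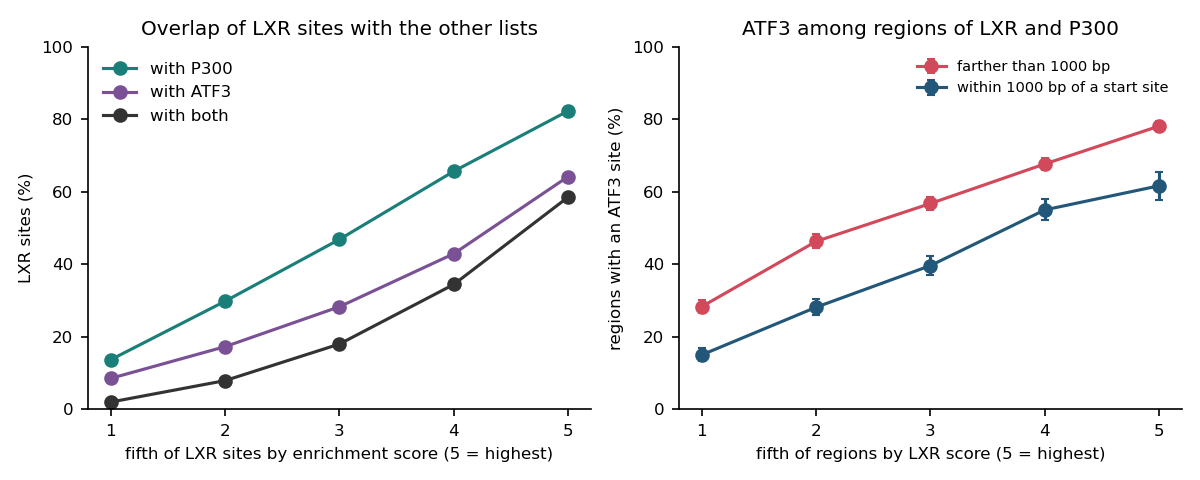
Left, share of LXR sites (percent) in a region with P300, ATF3 or both, by group of LXR enrichment score (5 is highest). Right, share of regions of LXR and P300 that also held ATF3, within 1000 bp of a start site and farther away, with exact 95% intervals; the share rises from 15.0% to 61.7% at promoters and from 28.3% to 78.2% elsewhere.

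Most shared regions were in accessible chromatin. Of the regions of all 3 factors, 96.7% overlapped a window of the control ATAC-seq list, as did 91.2% of LXR with P300, 88.5% of LXR with ATF3 and 88.4% of P300 with ATF3. The single factors were lower, at 65.9% for LXR, 63.5% for ATF3 and 55.7% for P300 (54.1 to 57.3%). Neither the score nor the width of a region was held equal in this comparison.

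H3K27ac, measured independently in 2 control libraries of 9468035 and 22615879 tags, was highest where P300 was present. Values are tags per window scaled to 10000000 tags, given as the median over windows in library 1 and library 2. Regions that overlap no window have no value here. Control ATAC-seq windows covered 55.7% of the regions of P300 alone and 96.7% of those of all 3 factors. At windows with P300 alone the medians were 14.8 and 12.4, at LXR with P300 12.7 and 10.2, at P300 with ATF3 11.6 and 9.29, and at all 3 factors 10.6 and 8.84. Without P300 they were lower in both libraries: 6.34 and 4.86 at LXR with ATF3, 5.28 and 4.42 at LXR alone, and 3.17 and 2.65 at ATF3 alone. Windows without any site had 3.17 and 2.21. These groups were drawn from all 70300 windows with an H3K27ac value, of which 63464 were on the control ATAC-seq list. How windows off that list divide among the groups was not counted. The lowest library value with P300 (8.84) was above the highest without it (6.34).

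Position moved with these values. Within 1000 bp of a start site, the mean of the 2 libraries had a median of 23.6 at P300 alone, 17.2 at LXR with P300, 16.8 at all 3 and 11.6 at LXR alone. Farther away it was 8.34, 8.23, 8.02 and 3.84. At distal windows, all 3 factors and LXR with P300 had the same median within each library, 8.45 in library 1 and 7.52 in library 2. The medians of the 2 libraries had an SD of 0.658 in both combinations. Distal windows of ATF3 alone had a median of 2.60, between LXR alone and the 1.64 of windows without a site. With 2 libraries no permutation test can reach a p under 0.05, and none was run. A single tag is worth 1.06 and 0.442 scaled tags in the 2 libraries, and a count of 0 allows 3.17 and 1.33, so the distal values at ATF3 alone and at windows without a site are near the floor. At promoter windows both were above it, with 10.6 and 8.84 at ATF3 alone and 11.6 and 8.84 without a site, and ATF3 alone was not higher there.

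**Figure D4:**
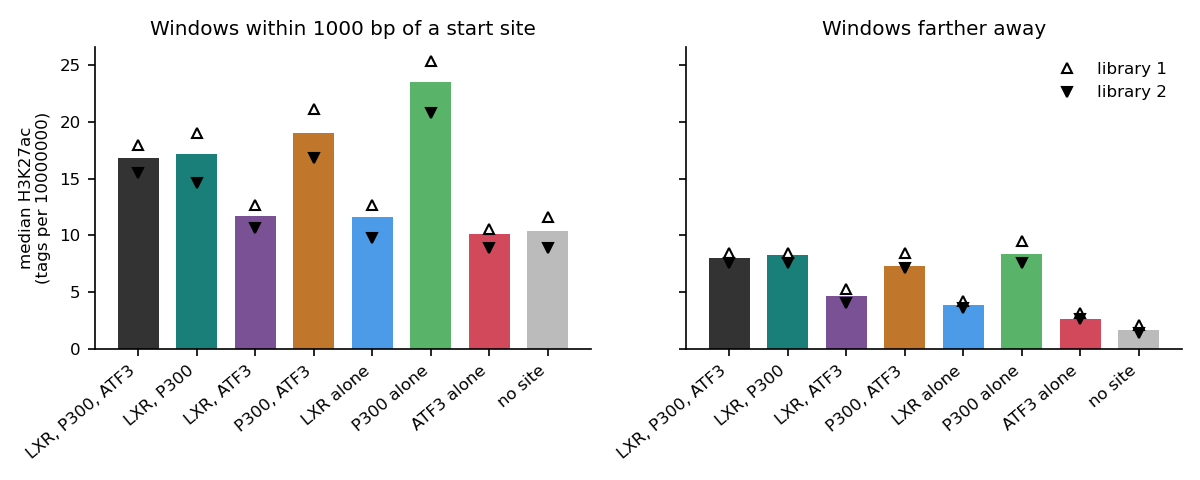
Median H3K27ac (y axis, tags per 10000000) in windows of each combination (x axis), within 1000 bp of a start site (left) and farther away (right). Windows off the control ATAC-seq list are included. Bars are the median of the mean of both libraries, triangles the median of each library. The 4 combinations with P300 are above the 3 without it in both panels.

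The labelled cell type was checked against its markers. Summed over the windows HOMER assigned to a gene, H3K27ac at Clec4f (a lectin of Kupffer cells) was 312 and 323, at Timd4 (Tim4, the sorting marker) 257 and 256, and at Cd5l (a secreted macrophage protein) 489 and 497. The hepatocyte genes Alb and Cyp7a1 had 4.22 and 2.65, and 1.06 and 0.88. Over lists, the median gene with a window had 163 and 142 for 34 of 34 Kupffer cell genes, 5.82 and 3.98 for 8 of 14 hepatocyte genes, and 22.2 and 17.2 over all 16038 genes with a window. Not every Kupffer cell gene was high: Vsig4 had 12.7 and 17.2, Folr2 11.6 and 25.2, and Lyve1 1.06 and 0.44. Of the other lists, stellate cell genes (3 of 12 with a window) had 34.9 and 25.6, monocyte genes (7 of 9) 25.4 and 21.2, B cell genes 13.7 and 10.6, T and NK cell genes 12.7 and 3.54, endothelial genes 4.22 and 3.98 and neutrophil genes 0 and 1.77. The monocyte gene Ly6c2 had 243 and 252, about the level of Timd4. A single window at a region of LXR with P300, 25104 bp from the Ly6c2 start site, had 140 and 133. The region at that window was among the highest-scored of its combination (LXR 358, P300 404). Whether HOMER assigned that window to Ly6c2 was not checked. The part of other cells in the results was not tested.

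Each region on the assembled chromosomes was assigned to the nearest start site among 20105 protein-coding genes. At least 1 region of any combination was nearest to 12291 genes (61.1%), and a region of all 3 factors to 5117 (25.5%), which is 41.6% of the genes with any region. P300 alone reached 2258 genes (11.2%). A gene with much DNA around it can collect more regions, so the length of DNA nearest to a gene is given for the genes with the most regions and for the lists that stand apart in it; the median over all genes was 52.1 kb. The genes with the most regions of all 3 factors were Zeb2 with 17 (a macrophage factor, 1947 kb), Dab2 with 15 (an endocytic adaptor, 644 kb) and Maf with 15 (a macrophage factor, 1033 kb). Abca1 (214 kb), Frmd4b (356 kb), Marcks (924 kb), Rasgef1b (788 kb) and Reep3 (1518 kb) had 14 each. Predicted genes were passed over.

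Genes of macrophage identity had many regions when all combinations were counted together, and most had one of all 3 factors. The median gene had 11.5 regions of any combination on the Kupffer cell list and 13.5 among macrophage factors, against 1 over all genes. Of all regions at these lists 22.3% and 25.4% held all 3 factors, near the 21.4% at all genes. Of 34 Kupffer cell genes, 31 had at least 1 (91.2%, against 25.5% of all genes), with a median of 2 regions. Itga9 (an integrin), Csf1r (the receptor for CSF1), Slc40a1 (ferroportin, the iron exporter) and Timd4 had 7 each. The 3 without one were Xlr, Trim29 and Cd68. Of 26 transcription factors of the macrophage lineage, 23 had one (88.5%), led by Zeb2, Maf, Klf4 with 12 (696 kb) and Cebpb with 11 (135 kb); the median stretch of this list was 147 kb. Those without were Nr1h2 (LXRβ), Tfe3 and Bhlhe41. Iron and heme genes had it in 14 of 15: Hmox1 (heme oxygenase), Fth1 (ferritin heavy chain) and Cd163 (the haemoglobin scavenger receptor) had 5 each, while Hamp (hepcidin) had no region of any kind.

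Stress and inflammatory genes followed in the share of genes with such a region. The share of regions gave another order. All 3 factors were in 31.9% of the regions at NF-κB genes, 29.7% at lysosomal genes and 29.4% at AP-1, ATF and immediate early genes. These were above the 22.3% at Kupffer cell genes and 25.4% at macrophage factors. Antigen presentation had 24.4%, interferon genes 20.4%, housekeeping genes 20.2% and corepressors and coactivators 19.3%, against 21.4% at all genes. Of 27 AP-1, ATF and immediate early genes, 22 had a region of all 3 (81.5%), with 13 at Klf6 and 12 at Myc (1444 kb). Of 26 NF-κB genes 20 did (76.9%): Nfkbiz and Tnfaip3, feedback regulators of NF-κB, had 8 each, Rel 7 and the cytokine gene Il1a 6. Of 22 lysosomal genes 16 did (72.7%), and all 7 regions at Npc2, a lysosomal cholesterol carrier, held all 3 factors. Corepressors and coactivators had 10 of 15 (66.7%), with 8 regions at Nrip1 (553 kb) and 7 each at Ncoa3 (135 kb) and Tbl1xr1 (2893 kb). Antigen presentation had 9 of 17 (52.9%), with 7 at Cd86, a costimulatory ligand. Interferon genes had 10 of 20 and housekeeping genes 10 of 20 (50%), to be read against 25.5% of all genes and 41.6% of the genes with any region.

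LXR targets were mostly, but not all, covered. Of 29 genes that LXR is known to control, all had a region and 22 had one of all 3 factors (75.9%). Of the regions at these genes 26.6% held all 3, against 21.4% at all genes. Abca1 had 14, Ptgs1 8, Mertk (a receptor for dying cells) 8 and Tgm2 (a transglutaminase) 7. Lipogenic genes varied: Elovl5 had 3, Scd1 2, Scd2 and Fads1 1 each, and Srebf1, Fasn, Acaca and Fads2 none, though Srebf1 had 3 regions of LXR with P300. Lpcat3, a phospholipid remodelling enzyme, had 2 of LXR alone and 1 of P300 alone; 1 of the former lay 388 bp upstream of its start site, with an LXR score of 316. Genes of cholesterol synthesis, which SREBP2 controls, had few regions, with a median of 1. Of 16 genes 4 had a region of all 3 (25.0%, near the 25.5% of all genes), and 11 had one of LXR alone (42.5% of all genes did), such as Dhcr7 with 3 and Hmgcs1 and Fdps with 2 each. Those with a region of all 3 included Insig1 with 2 and Sqle with 1.

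Markers of other cells ranged around the 25.5% of all genes. A region of all 3 factors was nearest to 4 of 8 monocyte genes, 5 of 13 endothelial, 3 of 10 neutrophil, 2 of 8 B cell, 3 of 14 hepatocyte, 2 of 10 stellate cell and 2 of 12 T and NK cell genes. With regions given to any start site within 20000 bp instead, hepatocyte genes had 1, endothelial 3 and stellate cell 1. P300 alone was nearest to 6 of the 14 hepatocyte genes (42.9%), above the 11.2% of all genes; these were Alb, Apoa1, Apoa2, Cyp2e1, Ass1 and Tat. The part of hepatocyte DNA in this was not tested. Some genes stand on more than 1 list, such as Nr1h3, Slc40a1 and Cebpb. Among the endothelial genes with a region of all 3 factors, Cdh5 (2377 kb) and Lyve1 also stand on the Kupffer cell list.

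**Figure D5:**
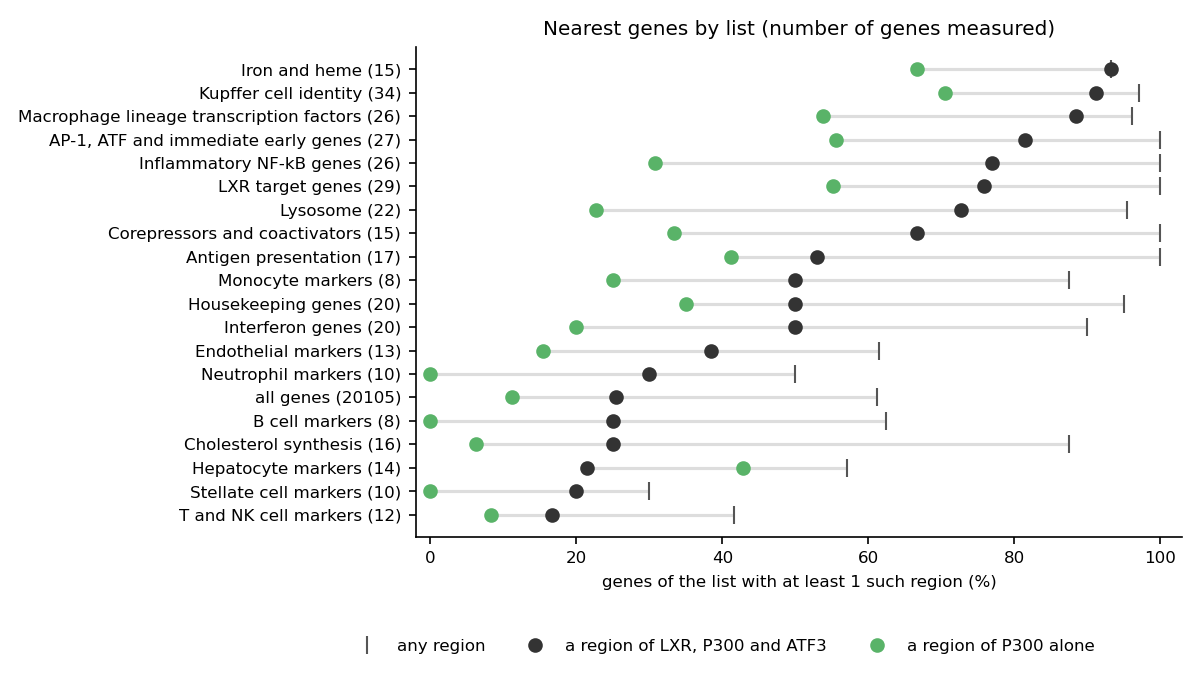
Share of the genes of each list (y axis, with the number of genes measured) that were nearest to at least 1 region of all 3 factors (black), of P300 alone (green) or of any combination (tick), in percent. Iron and heme, Kupffer cell and macrophage factor genes lie at 88.5 to 93.3% for all 3 factors, cholesterol synthesis at 25.0% and all genes at 25.5%.

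Abca1 and Abcg1, the 2 sterol exporters switched on by LXR, differed in combination. Abca1 had 44 regions over 214 kb, of which 14 held all 3 factors, 13 LXR alone, 9 LXR with P300, 7 P300 alone and 1 ATF3 alone. At its start site (chr4:53159764-53160298, 136 bp upstream) the region held all 3, with scores of 278 for LXR and 126 for P300. Its highest LXR score, 361, was 58364 bp upstream, at chr4:53218054-53218464. Abcg1 had 18 regions over 87.5 kb and 13 of them were LXR alone. Only 2 held all 3, at chr17:31038235-31038688 and chr17:31039652-31039908, 19233 and 17914 bp upstream, with LXR scores of 216 and 297. Its start site had a region of P300 alone (chr17:31057621-31057828), and the intronic region of LXR alone 18005 bp downstream scored 232.

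At Apoe, the apolipoprotein E gene, 8 regions lay within a stretch of 11.8 kb. The region at the start site (chr7:19698855-19699325) held all 3 factors, with scores of 147 for LXR and 159 for P300. Downstream, over the gene, lay 1 region of P300 with ATF3 and 3 of P300 alone. At Nr1h3, the gene of LXRα itself, the start site also held all 3 (chr2:91194945-91195263, LXR score 161), with LXR and P300 only at 970 and 1826 bp upstream.

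Timd4 had 24 regions, 7 of them of all 3 factors, 8 of LXR alone and 2 of P300 alone. All 3 factors met at its start site (chr11:46810599-46810849, 75 bp upstream; scores of 151 for LXR and 56 for P300). H3K27ac in that window was 12.7 and 15.0, and 31.7 and 21.2 in the intronic window of LXR with P300 1594 bp downstream. Clec4f had 28 regions in 52.7 kb, and 14 of them were P300 alone. Its start site held all 3 (chr6:83655962-83656242, LXR score 110), and so did a region 24093 bp downstream with an LXR score of 411 (chr6:83631846-83632201). All but 1 of the regions of P300 alone lay between positions 83642113 and 83655273 of chromosome 6, downstream of the start site and mostly outside accessible windows, with 1 region of all 3 factors and 2 of LXR with P300 among them.

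At Spi1, which encodes PU.1, all 3 factors met at the start site (chr2:91096480-91096901; scores of 129 for LXR and 57 for P300) and at 2 upstream regions, 11977 and 10157 bp away. The farther of these had the locus's highest LXR score, 240 (chr2:91084519-91084884). Atf3 had 11 regions and 6 held all 3. ATF3 had a site at its own promoter (chr1:191183072-191183541, with the top IDR score of 1000), together with LXR (140) and P300 (49), and the promoter sequence printed above lies within that region. H3K27ac there was 11.6 and 7.52, against 68.7 and 86.7 in the intronic window 884 bp downstream, where LXR and P300 but not ATF3 had a site.

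The highest mean score percentile of each combination led to other genes. For all 3 factors the leading regions were near Rasgef1b (chr5:99339620-99340170, 86968 bp upstream; LXR 412, P300 158), Frmd8 (chr19:5845299-5845679) and Ccdc186 (chr19:56774424-56774721). For LXR with ATF3 they were near Gpx1, a glutathione peroxidase (chr9:108342383-108342684, LXR 468) and Coro6. For P300 with ATF3 they were near Tex14, at Actb and at the promoter of Id3, an inhibitor of helix-loop-helix factors (chr4:136143551-136143981, P300 154). LXR alone led to Trim25 (chr11:89024236-89024497, LXR 471) and Elovl5, a fatty acid elongase (chr9:77910605-77910809, LXR 421). P300 alone led to the promoter of Dusp1, a phosphatase of MAP kinases (chr17:26508289-26508511, P300 232), and to a region 26372 bp from Ly6c2 (chr15:75085465-75085666, P300 141). Beside the latter lay a region of LXR with P300 (chr15:75086672-75086995) with scores of 358 and 404. Whether this is a stretch of extreme signal was not tested. For ATF3 alone, where ties in score were settled by width, they were near Stambp, Heg1 and Il13ra1.

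For LXR with P300, LXR alone and P300 alone, the highest scores lay in stretches of extreme signal. A stretch of chromosome 2 that HOMER annotates as intergenic (chr2:98662474-98667252, nearest start Lrrc4c) held 5 regions of LXR with P300 and the highest scores of both lists, 1040 and 1512; H3K27ac in its main window was 23388 and 21228. A stretch of chromosome 17 (chr17:39843085-39848581, nearest start Esp38) held 11 regions and 0 ATF3 sites. The mitochondrial chromosome held 26 regions and unplaced contigs 101. These 4 sources made up 143 regions, 70 of them of P300 alone, and held 13 of the 20 highest LXR and 18 of the 20 highest P300 scores. The third region of LXR with P300 by score lay 37587 bp from Rpusd4 and had H3K27ac of 956 and 937. Next after it came the region 25104 bp from Ly6c2, with H3K27ac of 140 and 133.

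Some genes held many regions of P300 alone. Of its regions 80.6% had another region of any kind within 5000 bp, against 73.9% for all 3 factors, 62.4% for LXR alone and 56.3% for ATF3 alone. It had 34 regions at Rasgef1b, 27 at Ctsc (cathepsin C), 23 at Zeb2, 21 at Slc40a1, 15 at Ctsb (cathepsin B) and 14 each at Clec4f and Lgmn (legumain, a lysosomal protease). Sfi1 had 22 of P300 alone among its 30 regions of any combination. Whether Sfi1 lies in a stretch of extreme signal was not tested. Such clusters were not particular to P300 alone. Genes with 5 or more regions of P300 alone numbered 88 and held 20.8% of them, whereas for LXR alone 904 genes held 33.9%, for all 3 factors 457 held 29.0% and for LXR with P300 295 held 18.1%. For ATF3 alone and for P300 with ATF3, the 2 rarest combinations, no gene had 5. A region of its own kind lay within 5000 bp of 35.8% of P300 alone, 36.4% of LXR alone and 34.6% of all 3 factors. P300 alone was nearest to 16 of 29 LXR target genes (55.2%) and 24 of 34 Kupffer cell genes (70.6%), against 11.2% of all genes.

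Promoter motifs varied between the combinations. Motifs were searched on both strands of the 300-base RefSeq promoters (250 before to 50 after the start), each assigned the combination of the region it overlapped. The CRE TGACGTCA was present in 5.10% of the 1744 promoters with all 3 factors (4.12 to 6.24%), 5.01% of the 399 with LXR and ATF3, and 3.62% of the 3065 with LXR and P300. It was in 4 of the 68 with P300 and ATF3 (5.88%, 1.63 to 14.4%), 4.14% of the 435 with P300 alone and 3.34% with LXR alone. With ATF3 alone the CRE was in 1 of the 67 (1.49%, 0.0378 to 8.04%), an interval that covers the shares of the other combinations. Of the 1956 accessible promoters without a site 2.71% held it, and of all 21262 promoters 2.23%. The hybrid TGACGCAA was in 5.51% with LXR and ATF3 (3.49 to 8.23%), 4 of 68 with P300 and ATF3 (5.88%, 1.63 to 14.4%) and 1.83% with all 3. That compares with 0.522% with LXR and P300, 0.686% with LXR alone, 0.204% of accessible promoters without a site and 0.644% of all. With ATF3 alone the hybrid was in 1 of 67. The composite TGATGCAA was in 7 of the 67 promoters with ATF3 alone (10.4%, 4.30 to 20.4%) and 3 of the 68 with P300 and ATF3 (4.41%, 0.919 to 12.4%), intervals that overlap. It was in 1.25% with LXR and ATF3, 0.917% with all 3, 0.196% with LXR and P300 and 0.865% of all. The hybrid and the composite were chosen after their counts were seen.

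The ETS element GAGGAAGT was most frequent with all 3 factors, in 7.17% (6.00 to 8.48%), against 3.30% with LXR and P300, 3.01% with LXR and ATF3, 2.56% with LXR alone and 1.53% of accessible promoters without a site. It was in 3.13% of all promoters. The AP-1 motif TGANTCA was in 6.25% with all 3, 5.76% with LXR and ATF3, 7.35% of 68 with P300 and ATF3 and 7.46% of 67 with ATF3 alone. Without ATF3 it was in 3.36% with LXR and P300, 3.68% with P300 alone and 4.12% with LXR alone. It was in 4.04% of accessible promoters without a site (3.21 to 5.01%) and in 6.99% of all promoters, whose GC content was lower. The LXR element DR4 (a pair of AGGTCA repeats 4 bases apart, up to 2 mismatches) was in 2.70% with LXR alone (2.06 to 3.47%), 2.06% with all 3 and 1.37% with LXR and P300 (0.989 to 1.85%), against 2.65% of all. Median GC content ran from 58.0% (ATF3 alone) to 63.7% (LXR and P300), and was 56.3% over all promoters. How much GC content bears on these shares was not tested.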

How the data were processed

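Sites were taken as deposited, on mm10, per the submitters' processing notes, which name Bowtie2, HOMER and DESeq2 without their roles. Per the file headers, sites of LXR and P300 passed an IDR threshold of 0.05 over both libraries. The authors' scores are an IDR score and an enrichment score; the ATF3 list gives no column names or threshold, and its score was read as the IDR score. The H3K27ac signal was deposited as tags per window scaled to 10000000 tags, per the file headers; 295 windows that overlapped regions of 2 or more combinations were left out. Input samples were not analysed here.

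Start sites came from the RefSeq promoter table for 17491 of 21883 protein-coding genes and from HOMER's window distances for 2614 more (strand right in 99.9% of 10706 genes that could be checked); 1778 genes had none and were not analysed here. Distances run from a region's centre. Planned motif searches in regions were replaced by RefSeq promoters. The genes and regions named were the 3 best-scored regions of each combination, the 5 genes with most regions of all 3 factors (with ties), up to 4 genes of each list, and 8 loci; some of these are not reported here. Other named genes (list members without a region or with few, genes rich in P300 alone, the promoters printed and Cd5l) were chosen after their values were seen. Members and gene lists were chosen with earlier results of these data known. Merging, overlaps and nearest start sites were tested on simulated sites (Python 3.11.15, pandas 2.3.3, numpy 2.4.6, scipy 1.17.1). Alternatives were another overlap, IDR threshold, list length, promoter width, H3K27ac summary and gene assignment (any start site within 20000 bp).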

Additional observations from a re-analysis of the deposited data

How the results depend on the processing

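The number of regions of all 3 factors ranged from 7154 (sites of an IDR of 0.01 or less) to 10780 (sites up to 200 bp apart merged), and was 6772 with lists cut to the shortest, where it became the largest combination. P300 with ATF3 stayed the smallest under every setting run. The share of LXR sites with P300 was 44.8% when at least 50% of the shorter site had to overlap, 40.8% at an IDR of 0.01 and 61.1% with cut lists; that of P300 sites with LXR was 78.9%, 85.3% and 61.1%, and that of ATF3 sites with LXR 85.7%, 89.1% and 54.8%. The promoter share of all 3 factors was 18.6% within 500 bp, 25.7% within 2000 bp, 17.6% at an IDR of 0.01 and 23.0% by HOMER's own distances; that of LXR with P300 was 34.6%, 44.3%, 46.1% and 43.5%. ATF3 alone kept the lowest promoter share under every setting run, and LXR with P300 the highest except by HOMER's distances, where P300 alone had 46.7%. With regions given to any start site within 20000 bp, 17 of 20 gene counts moved by at most 1.5 times. More than that moved 3 (hepatocyte, endothelial and stellate cell genes, with 1, 3 and 1). B cell and T and NK cell genes went from 2 to 3 each, which is the limit itself. With IDR scores, an LXR site of all 3 factors was the higher in 73.7% of pairs with LXR alone. Median H3K27ac at all 3 factors was 8.02 at distal windows and 14.6 as a mean over windows, and at ATF3 alone 2.60 and 8.25; leaving out a library gave 8.84 to 10.6 and 2.65 to 3.17. The mitochondrial chromosome, unplaced contigs and the stretches of extreme signal on chromosomes 2 and 17, chosen after seeing the data, were left out. None of 22 results moved past its limit: 1.5 times for region counts, the binomial interval for promoter shares and the SD of the library medians for H3K27ac. The 143 regions left out are too few to move a count by 1.5 times, so the counts could not fail. Scores were not compared again without them. The motif search planned on regions was not run, as it needs a genome. No paired analysis was possible because the lists hold no value per library and no test was made.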

Other observations

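On the NASH diet, a diet that models fatty liver inflammation, the lists were longer, with 51709 sites of LXR, 52628 of P300 and 38828 of ATF3. Merged in the same way they gave 71973 regions, of which 25553 (35.5%) held all 3 factors, 13544 (18.8%) LXR with P300, 9569 (13.3%) LXR alone, 10151 (14.1%) P300 alone, 7193 (9.99%) ATF3 alone, 3114 (4.33%) P300 with ATF3 and 2849 (3.96%) LXR with ATF3. On the control diet LXR alone was the largest combination and all 3 factors the second. The lists of the 2 diets differ in length and were made separately, so these counts stand side by side and no difference between diets was tested.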
